A study of Mus musculus with 6 samples.

Results

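The cells described are the interstitial macrophages of the neonatal mouse lung, that is, every cell that the deposited annotation names Int Mf. There were 1874 of them among 61839 cells of 34 types, which is 3.03% of all cells and 15.9% of the 11818 myeloid cells. C57BL/6 pups were kept in room air (21% O2, normoxia) or in 85% O2 (hyperoxia, at normal pressure) from birth until harvest at postnatal day 3, 7 or 14 (P3, P7, P14), with 6 mice in each of the 6 groups. Pups were randomised at birth, and the oxygen level is the only named treatment. Nursing dams were moved between the chambers, and all groups share the strain. Whole perfused lungs were dissociated, the cells of each mouse were tagged with a lipid-bound DNA barcode (MULTI-seq), and messenger RNA molecules were counted by unique molecular identifiers (UMIs) with droplet-based 3′ sequencing. No gate selected macrophages, so a mouse gave between 6 and 115 interstitial macrophages, with a median of 49.

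Interstitial macrophages live in the lung wall, around vessels and airways, and differ from the alveolar macrophages that live in the airspace and clear surfactant. They take up debris and apoptotic cells, make the complement protein C1q, present antigen on MHC class II molecules and secrete cytokines that act on neighbouring vessels and stroma. Oxidants call on a set of antioxidant genes under the factor NRF2, interferons on a set of antiviral genes, and MHC class II genes are switched on by the coactivator CIITA.

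The promoters of 6 genes on which the results below turn are shown from RefSeq on GRCm38.p6, from 250 bases before to 50 bases after the start of the transcript, 5′ to 3′ on the strand of the gene. Prdx1 (peroxiredoxin 1), Srxn1 (sulfiredoxin, which repairs peroxiredoxins) and Gclm (a subunit of the enzyme for glutathione synthesis) stand for the antioxidant genes. H2-Aa and H2-Eb1, chains of the MHC class II molecules, stand for antigen presentation, and Bst2 (tetherin, which holds back budding viruses) for the interferon response. Capitals mark, on either strand, the core of the antioxidant response element in Prdx1, Srxn1 and Gclm, the Y box in H2-Aa and H2-Eb1 and the core of the interferon-stimulated response element in Bst2.
Prdx1: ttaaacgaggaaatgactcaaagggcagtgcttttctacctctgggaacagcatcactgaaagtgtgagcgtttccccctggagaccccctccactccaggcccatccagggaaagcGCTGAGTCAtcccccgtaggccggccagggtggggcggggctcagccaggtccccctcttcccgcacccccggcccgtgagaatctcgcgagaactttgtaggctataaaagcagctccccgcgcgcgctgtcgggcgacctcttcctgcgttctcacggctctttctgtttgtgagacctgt
Srxn1: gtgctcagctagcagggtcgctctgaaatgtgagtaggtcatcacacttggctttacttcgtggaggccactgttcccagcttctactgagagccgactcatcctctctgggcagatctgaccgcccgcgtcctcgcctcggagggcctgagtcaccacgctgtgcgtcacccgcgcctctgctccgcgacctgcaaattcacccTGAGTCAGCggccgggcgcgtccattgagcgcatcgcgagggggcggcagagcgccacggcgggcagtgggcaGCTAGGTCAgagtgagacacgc
Gclm: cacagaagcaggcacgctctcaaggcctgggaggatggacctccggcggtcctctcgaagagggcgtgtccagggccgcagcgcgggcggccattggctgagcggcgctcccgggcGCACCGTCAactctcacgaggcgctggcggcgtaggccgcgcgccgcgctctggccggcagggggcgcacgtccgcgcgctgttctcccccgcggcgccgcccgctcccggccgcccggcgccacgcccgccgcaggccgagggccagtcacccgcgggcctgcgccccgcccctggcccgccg
H2-Aa: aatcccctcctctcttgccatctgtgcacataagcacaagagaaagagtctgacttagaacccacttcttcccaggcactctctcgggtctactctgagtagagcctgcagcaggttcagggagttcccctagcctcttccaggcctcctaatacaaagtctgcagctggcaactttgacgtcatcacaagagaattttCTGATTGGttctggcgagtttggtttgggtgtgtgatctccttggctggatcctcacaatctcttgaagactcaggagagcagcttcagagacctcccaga
H2-Eb1: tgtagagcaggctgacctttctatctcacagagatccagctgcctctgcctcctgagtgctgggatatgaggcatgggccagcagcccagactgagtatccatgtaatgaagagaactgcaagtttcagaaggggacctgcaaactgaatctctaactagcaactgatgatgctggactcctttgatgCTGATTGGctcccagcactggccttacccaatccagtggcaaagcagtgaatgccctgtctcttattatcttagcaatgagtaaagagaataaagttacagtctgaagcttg
Bst2: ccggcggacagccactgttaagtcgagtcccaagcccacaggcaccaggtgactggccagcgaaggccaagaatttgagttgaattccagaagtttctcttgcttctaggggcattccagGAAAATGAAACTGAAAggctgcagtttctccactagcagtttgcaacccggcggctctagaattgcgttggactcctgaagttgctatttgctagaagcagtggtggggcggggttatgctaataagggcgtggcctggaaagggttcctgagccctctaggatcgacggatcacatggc

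The windows lie at chr4:116685349-116685648 on the plus strand for Prdx1, chr2:152105274-152105573 plus for Srxn1, chr3:122245307-122245606 plus for Gclm, chr17:34287774-34288073 minus for H2-Aa, chr17:34305617-34305916 plus for H2-Eb1 and chr8:71537423-71537722 minus for Bst2. The antioxidant letters TGACNNNGC began 133 bases before the start of Prdx1 and 134 bases before that of Gclm, both on the reverse strand, and 28 bases after the start of Srxn1, also reversed. A related form, TGANTCAGC, chosen after the sequences were seen, lay 45 bases before the start of Srxn1. Over the same bases as TGACNNNGC, it also lay 133 bases before that of Prdx1. The Y box CTGATTGG lay 51 bases before the start of H2-Aa and 62 bases before that of H2-Eb1. In Bst2, the interferon element, a pair of GAAA runs with 2 bases between them, matched 130 and 124 bases before the start, and these matches overlap. Over both strands, TGACNNNGC was found in 12.4% of all 32851 windows and in 9 of 35 windows of antioxidant genes (25.7%). The form TGANTCAGC was found in 1.19% of all windows and in 2 of these 35 (5.71%), those of Srxn1 and Prdx1. Both had been seen before it was chosen, so its share in the list was fixed by the choice and compares nothing. The Y box was found in 4.1% of all windows and in 3 of 8 windows of MHC class II genes (37.5%). The interferon element was found in 3.44% of all windows and in 12 of 24 windows of interferon genes (50%). A window was found for 25 of 29, 7 of 10 and 20 of 28 genes of these lists. A match is a run of letters and not evidence of binding.

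Levels of the marker genes describe the type. Interstitial macrophages had the highest mean level of all 33 types measured in enough mice for C1qa, C1qb and C1qc, the chains of C1q, for Cx3cr1, the fractalkine receptor, and for Apoe, a lipid carrier. Levels are UMIs of the summed cells of a mouse scaled to 1000000 (CPM), and are given as mean ± SD over 35 mice. C1qa was at 2517 ± 813 CPM, C1qb at 2628 ± 825 CPM and C1qc at 1546 ± 443 CPM, against 24.9, 58.4 and 20.4 CPM in monocytes, the next type for C1qa, C1qb and C1qc. For Cx3cr1 the level was 345 ± 133 CPM and 169 CPM in monocytes, and for Apoe 12489.5 ± 3568 CPM and 2555 CPM. The type also ranked first for Csf1r, the receptor of the macrophage growth factor, at 590 ± 166 CPM, for the scavenger receptor gene Mrc1 at 738 ± 201 CPM, for Adgre1, which encodes F4/80, at 321 ± 74 CPM and for the lipid sensor gene Trem2 at 322 ± 119 CPM. Alveolar macrophages exceeded it for their own markers Siglecf (65.3 against 15 CPM), Ear2 (996 against 396 CPM) and Marco (876 against 80.6 CPM), and monocytes for Ly6c2 (343 against 5.24 CPM) and Plac8 (5738 against 60.5 CPM). The deposited cell types were made from the expression of these same cells, so these levels were fixed by the choice of the cells and were not tested.

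**Figure D1:**
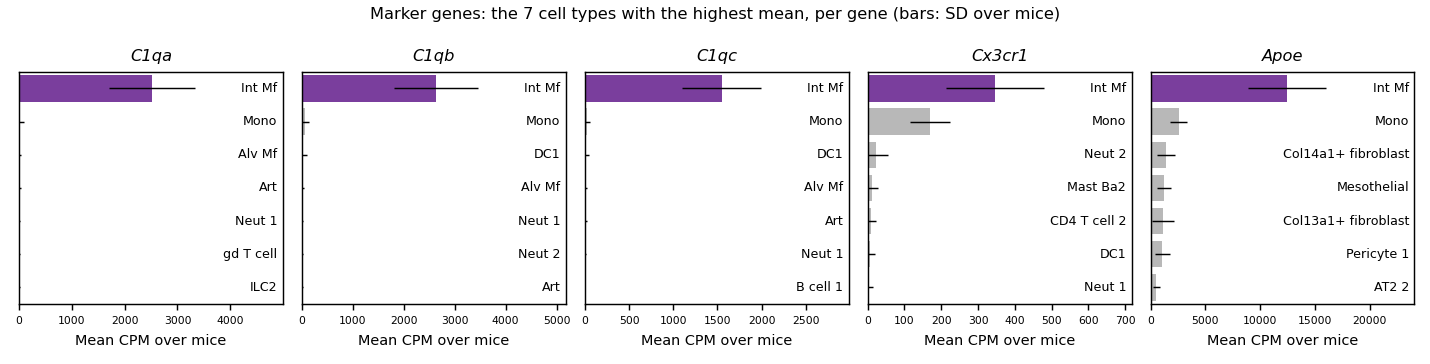
Mean level in CPM of 5 marker genes in the 7 cell types with the highest mean for each gene, with interstitial macrophages in purple, other types in grey and bars for the SD over mice. Interstitial macrophages lead each panel, with C1qb at 2628 CPM against 58.4 CPM in monocytes and Cx3cr1 at 345 against 169 CPM.

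Not every cell carried the markers. A UMI of any C1q gene was found in 67% of the interstitial macrophages, and in 61.2% after each cell was thinned to 1000 UMIs, against 6.46% and 1.15% of alveolar macrophages, 5.42% and 2.37% of monocytes, and 1.95% and 0.793% of the B cells named B cell 1, which should lack these genes. The median cells of these types held 6386.5, 2181, 7788 and 4321 UMIs in interstitial macrophages, B cells, alveolar macrophages and monocytes. Summed over the mice, Cd209a, a dendritic-cell lectin, was found in 6.3% of the cells at 65.8 ± 65.9 CPM, the highest mean of any type. Sftpc, the surfactant protein of alveolar type 2 cells, had a UMI in 96.2% of the cells at 843 ± 200 CPM and ranked 24 among the types. Where it changed a count by over 1.5 times, a result is given also for cells with a C1q UMI or for cells without a dendritic UMI.

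The sums of the interstitial macrophages came to 108414 to 1017804 UMIs (median 270676) in the 35 mice with at least 10 such cells. Replicate 5 of the P7 mice in 85% O2, with 6 interstitial macrophages among 125 cells, was left out of all sums and kept in the shares. The median UMIs per cell, taken over mice, did not overlap at P14, where they were 4660 to 5699 in normoxia and 7605 to 9465 in hyperoxia (difference of means 3189, exact permutation test, p = 0.00216). The same exact permutation test gave p = 0.437 at P3 and p = 0.0541 at P7, but it does not take the pool into account. Within pools the medians of the oxygen levels were also apart at P3, at 7451 to 7891 and 9135 to 10667 UMIs in the shared pool and 3021 to 3216 and 3694 to 4079 UMIs in the second, and in the first P7 pool, at 5573 to 6486 and 6626 to 9706 UMIs. Hyperoxic cells were the deeper ones in each of these. Cell barcodes that also occur in another library were found for 24 interstitial macrophages, and 0 were shared by 2 of them. The mice of each age came from 2 pools, each with 3 normoxic and 3 hyperoxic mice of that age, and P14 mice shared no pool with other ages, so age at P14 and pool cannot be told apart.

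At P14 interstitial macrophages made up a larger share of all cells in every hyperoxic mouse than in any normoxic mouse, and in normoxia the share was lower at P14 than at P3. In normoxia the shares ranged from 2.74% to 5.39% with a median of 3.14% at P3, from 1.7% to 3.05% with a median of 2.63% at P7, and from 0.988% to 2.08% with a median of 1.74% at P14. In hyperoxia they ranged from 3.21% to 5.13% (median 3.74%), from 1.8% to 4.8% (3.26%) and from 3% to 6.28% (3.98%). At P14 the groups do not overlap, and the means were 1.58% ± 0.43 and 4.36% ± 1.42 (SD, n = 6 each), a difference of 2.79 percentage points (two-sided exact permutation test, p = 0.00216, the smallest that 6 against 6 mice allow, and 0.0245 after adjustment over 34 types and 3 ages). The difference was 2.86 and 2.71 points within the P14 pools. At P3 and P7 the difference was 0.477 and 0.786 points, with adjusted p = 0.632 and 0.395 in the same exact test, and the groups overlapped.

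The difference at P14 was also seen against other denominators. As a share of myeloid cells, interstitial macrophages made up 11.4% in normoxia and 19.7% in hyperoxia at P14, and the adjusted p of the exact permutation test was between 0.0221 and 0.0464 over the other denominators, with labels permuted within pools and without the mouse with the fewest cells. That mouse was a P7 mouse, so leaving it out could change the P14 value only through the adjustment. Among cells with a C1q UMI after thinning, the share of all cells rose from 1.01% to 3.28% (exact p = 0.00216, adjusted over 3 ages 0.00649). There were 0.175 to 0.316 interstitial macrophages per alveolar macrophage in normoxia at P14, with a median of 0.253, and 0.484 to 2.13, with a median of 0.855, in hyperoxia, again without overlap (log2 difference 1.84, exact permutation test, p = 0.00216, adjusted over 6 tests 0.013). The ratio to monocytes differed by 0.69 on the log2 scale (exact test, adjusted p = 0.133), which did not pass. The larger difference at P14 than at P3, 2.31 points, had a p of 0.0358 by a permutation test with 100000 resamples and 0.107 after adjustment over 3 tests, so the ages were not shown to differ in their response. In normoxia the share at P14 was 1.89 points below that at P3 (exact permutation test, adjusted over 204 tests 0.0232). It was 4.81 points lower as a share of myeloid cells (adjusted p = 0.201 in the same exact test), where the call was lost. In hyperoxia the ages differed by -0.705 points from P3 to P7 and 1.13 points from P7 to P14, and neither passed (exact permutation test, adjusted p = 0.467 and 0.381). A lower share and a larger number of other cells cannot be told apart.

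**Figure D2:**
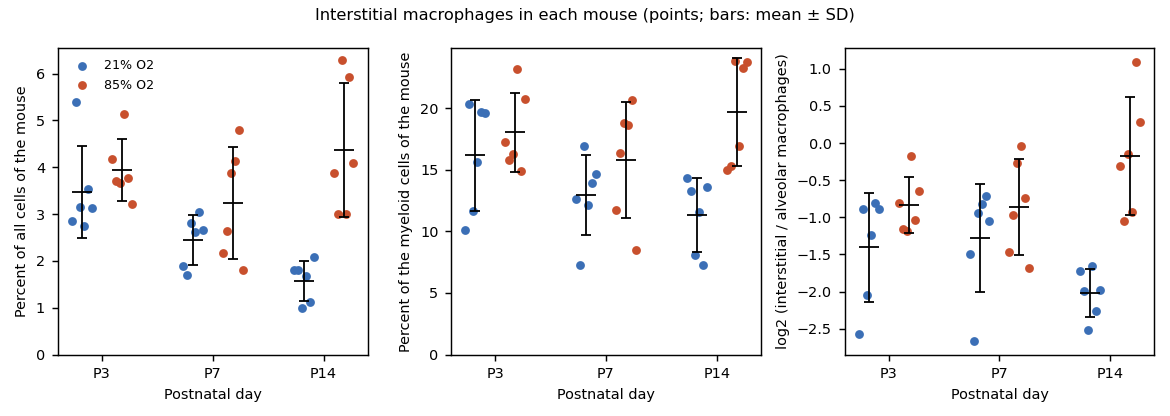
Share of interstitial macrophages among all cells (left) and among myeloid cells (middle) in percent, and log2 ratio of interstitial to alveolar macrophages (right), in each mouse at P3, P7 and P14. Points are mice in 21% O2 (blue) and 85% O2 (red), and bars are mean ± SD of 6 mice. At P14 the points in 85% O2 sit at 3% or above in the left panel and those in 21% O2 at 2.08% or below.

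Hyperoxia changed 650 of 5112 tested genes over all ages (12.7%), 342 up (6.69%) and 308 down (6.03%), by edgeR's quasi-likelihood test on the sums with age as a covariate. The count was 371 with equal UMIs per cell, 196 with equal numbers of cells, and 278 and 296 without the first and the second P14 pool. Genes count as changed where the adjusted p lies below 0.05 and 10% or more of the cells of an oxygen level held a UMI. The increases were led by Spp1 (osteopontin, a secreted matrix protein and cytokine), the lectin receptor gene Clec4d, the matrix metalloproteinase gene Mmp19 and Fabp5, a fatty acid carrier. The decreases were led by the heat-shock genes Hspa1b and Hspa1a, the receptor gene Lilra5 (by 1.44) and the metalloprotease gene Adam19 (by 1.34), followed by Xlr (1.22), Bank1 (1.17), Txnip (1.08), Clec4b1 (1.06), Grk3 (1.05) and Rnase6 (0.99). In the sums, fewer cells that express a gene and less RNA per cell cannot be told apart.

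Spp1 was at 27.1 to 163 CPM in normoxia at P3, with a median of 62.5 CPM, and at 72.2 to 970 CPM, with a median of 356 CPM, in hyperoxia. At P7 it was at 8.96 to 215 CPM (median 54.1 CPM) in normoxia and at 245, 247, 341, 356 and 849 CPM in the 5 hyperoxic mice. At P14 it was at 0 to 54 CPM (median 25 CPM) and at 250 to 1250 CPM (median 632 CPM). The hyperoxic mice were above all normoxic mice at P7 and P14 and overlapped with them at P3. The log2 fold change over all ages was 3.05 (SE 0.37, edgeR adjusted p = 4.2e-07), with 2.61 for the P3 mice, 2.51 for the P7 mice and 4.57 for the P14 mice, each of which passed the test. Spp1 was higher in all 6 groups of mice that share an age and a pool.

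Fabp5 rose by 1.66 (SE 0.29, edgeR adjusted p = 0.00017), with medians of 245, 158 and 308 CPM in normoxia at P3, P7 and P14 and of 664, 615 and 1185 CPM in hyperoxia. Its hyperoxic mice at P14, at 839 to 2800 CPM, were all above the normoxic ones at 129 to 654 CPM. Clec4d rose by 1.78 (SE 0.28) and Mmp19 by 1.69 (SE 0.28), both in each of the 6 groups of age and pool. At P14 Clec4d stood at 4.91 to 26 CPM in normoxia and 74.3 to 135 CPM in hyperoxia. The other large increases were in Hp (haptoglobin, which binds free haemoglobin) by 1.43, Thbs1 (thrombospondin 1) by 1.14, the lectin receptor gene Clec4e by 1.11, Syngr1 by 1.04, Nt5dc2 by 1.03 and Wfdc17 by 1.02.

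**Figure D3:**
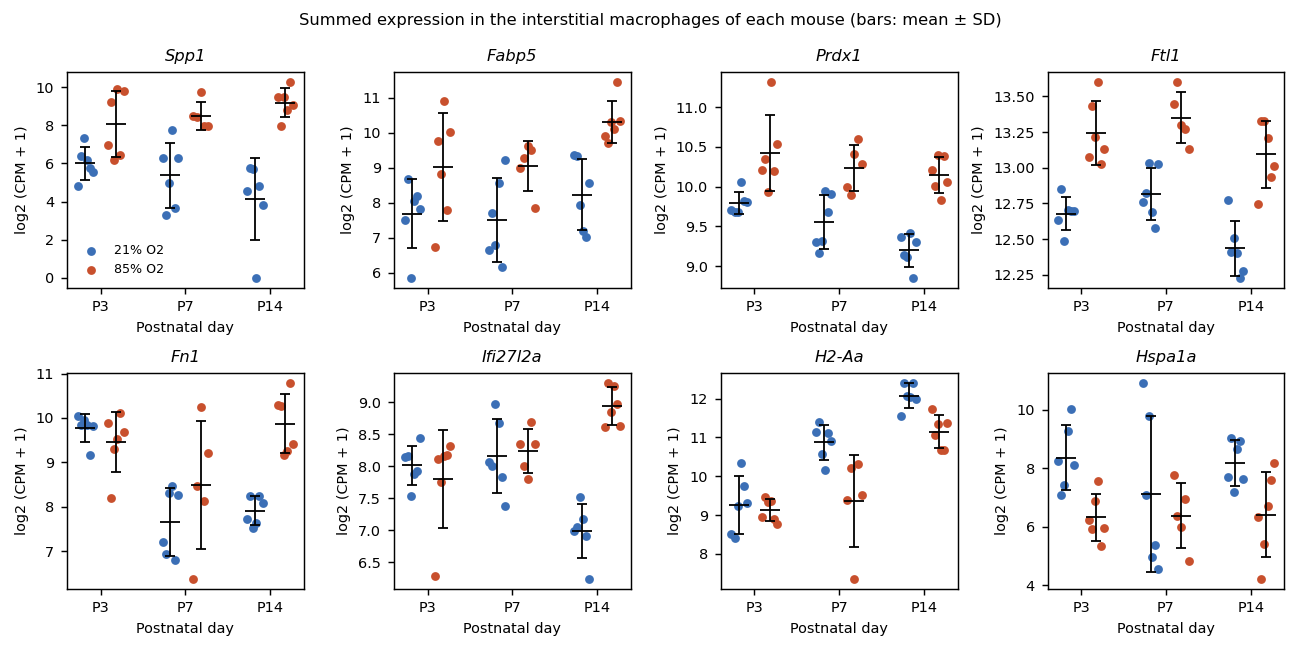
Level of 8 genes, as log2 (CPM + 1) of the summed interstitial macrophages, in each mouse at P3, P7 and P14 in 21% O2 (blue) and 85% O2 (red), with mean ± SD. Spp1, Fabp5, Prdx1 and Ftl1 were higher in hyperoxia, while the oxygen levels overlapped for Fn1 and Ifi27l2a at P3 and P7 and were apart at P14 (Ifi27l2a at 74.8 to 182 CPM against 390.3 to 633 CPM).

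Of 29 antioxidant genes of the NRF2 list, 28 were tested, 16 rose over all ages, 12 did not pass and 0 fell. Their median log2 fold change was 0.39 against -0.02 over all tested genes, of which 6.69% rose and 6.03% fell. This list and those below were chosen with earlier results of these data known, so such counts are not independent evidence. Prdx1, whose promoter is shown above, was at 820 to 1061 CPM (median 865 CPM) in normoxia and 973 to 2559 CPM (median 1243 CPM) in hyperoxia at P3. At P7 it was at 573 to 983 CPM (median 729.8 CPM) and at 949, 1021, 1245, 1359 and 1549 CPM, and at P14 at 461 to 681 CPM (median 597 CPM) and 910 to 1345 CPM (median 1125 CPM). The oxygen levels overlapped at P3 and P7 and were apart at P14. Within each group of age and pool, every hyperoxic mouse was above every normoxic one. Prdx1 rose by 0.82 (SE 0.10, edgeR adjusted p = 4.2e-07) over all ages, and by 0.77 at P3, 0.72 at P7 and 0.97 at P14.

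Ftl1, the light chain of the iron store ferritin, was at 5748 to 7380, 6121 to 8366 and 4796 to 7014 CPM in normoxia at P3, P7 and P14 and at 8342 to 12410.4, 8992 to 12446 and 6875 to 10279.9 CPM in hyperoxia. The groups were apart at P3 and P7, as for 0.176% and 0.567% of all tested genes in this direction (0.352% and 0.724% in the other), and overlapped at P14. It rose by 0.64 (SE 0.06, edgeR adjusted p = 7.6e-09), and its heavy-chain partner Fth1 by 0.48. Among the other members, Slc7a11 (the cystine importer for glutathione synthesis) rose by 0.83, Srxn1 by 0.68, Gclm by 0.56, Txn1 (thioredoxin) by 0.55, Pgd (which makes NADPH) by 0.50, Txnrd1 (thioredoxin reductase) by 0.46 and Sod2 (mitochondrial superoxide dismutase) by 0.45. Srxn1 was higher in 5 of 6 groups of age and pool. It was lower in the first P7 pool, at 17.5 to 30 CPM in normoxia and 0 to 19.1 CPM in hyperoxia. Txnip, which binds and inhibits thioredoxin, fell by 1.08 (SE 0.19, edgeR adjusted p = 0.00021) and was lower in all 6 groups of age and pool. In the list 2 genes rose at P3, then 5 at P7 and 10 at P14, while 0 fell at any age. Over all tested genes the share that rose was 0.117%, 0.509% and 6.51% at these ages, so the number of increases grew in the list and outside it. When equally many cells were drawn from each mouse, 8 members rose over all ages.

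Among genes of energy metabolism, increases were most numerous in oxidative phosphorylation, which was also the list with the most tested genes. Beside the counts below, 6.69% of all tested genes rose and 6.03% fell over all ages. Of 54 tested nuclear genes of oxidative phosphorylation, 33 rose and 0 fell, with a median of 0.25, led by Ndufb2 (0.49) and Ndufc1 (0.45) of complex I, Cox5a (0.43) of complex IV and Ndufs5 (0.37) of complex I. Their number was 12 and 20 without the first and the second P14 pool, and 6 with an equal number of cells. Of 13 genes of the mitochondrial genome, 4 rose (mt-Co2 by 0.36, mt-Co1 by 0.25, mt-Cytb by 0.23 and mt-Atp6 by 0.19) and 0 fell. At P3, P7 and P14, 1, 2 and 0 of these 13 rose, and 1 fell at P14. Of the 54 nuclear genes, 0, 0 and 26 rose at these ages, and 45, 49 and 50 had a log2 fold change above 0. The share of all tested genes that rose was 0.117%, 0.509% and 6.51%, and 7.1% fell at P14. Beside the mitochondrial genes, the mean percent of mitochondrial UMIs per cell was 4.18% in normoxia and 5.05% in hyperoxia at P3 (exact permutation test, p = 0.00216), 4.41% and 5.06% at P7 (exact p = 0.0216) and 5.93% and 5.89% at P14 (exact p = 0.885), and its part in the result was not tested. Of 13 tested genes of glycolysis, 5 rose and 0 fell, with a median of 0.37. These were Pkm (pyruvate kinase, 0.75), Pgam1 (0.67), Pgk1 (0.61), Aldoa (aldolase, 0.44) and Ldha (lactate dehydrogenase, 0.38).

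Among genes of uptake and digestion, a part of each list rose. For these lists and that of matrix remodelling, the share over all tested genes was 6.69% up and 6.03% down. Of 27 tested lysosomal genes, 10 rose and 0 fell (median 0.15), with the proteases Ctsd (0.69) and Ctsl (0.47), the lipase gene Lipa (0.51) and the membrane protein gene Cd68 (0.42) leading. The number was 5 among cells with a C1q UMI and 5 among cells without a dendritic UMI. Of 20 tested genes of phagocytosis, 6 rose and 1 fell. Trem2, which senses lipids and dying cells, was at 188 to 317, 192 to 277 and 145 to 431 CPM in normoxia at P3, P7 and P14 and at 298 to 457, 331 to 534 and 338 to 641 CPM in hyperoxia, and rose by 0.80 (SE 0.11, edgeR adjusted p = 5.3e-06) in all 6 groups of age and pool. The scavenger receptor gene Msr1 rose by 0.87, Clec4n by 0.71 and Cd36 by 0.50, while Cd163, the haemoglobin scavenger receptor gene, fell by 0.77. Of 16 tested genes of lipid handling, 4 rose (Fabp5, Lgals3 by 0.78, Lpl, the lipoprotein lipase gene, by 0.64, and Cd36) and Pltp, the phospholipid transfer protein gene, fell by 0.63. Of 12 tested genes of matrix remodelling, 5 rose and 0 fell. Beside Mmp19 and Thbs1 these were Fn1 (fibronectin, 0.98), Mmp14 (0.87) and Tgfbi (0.61), and their number was 3 without either P14 pool.

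Fewer genes fell as groups. Of 21 immediate early and stress genes, 6 fell and 0 rose (median -0.28), where 6.03% of all tested genes fell and 6.69% rose. Hspa1a, an inducible heat-shock protein gene, was at 136 to 1031 CPM (median 287 CPM) in normoxia and 39.7 to 189 CPM (median 66.9 CPM) in hyperoxia at P3, and at 143 to 515 CPM (median 305 CPM) and 17.6 to 290 CPM (median 91.6 CPM) at P14. At P7 it ran from 22.2 to 1936 CPM in normoxia and stood at 27.2, 61.7, 81.1, 123 and 217 CPM in hyperoxia. The normoxic P7 mice were at 134 to 1936 CPM in the pool shared with P3 and at 22.2 to 40.8 CPM in the other pool, where the hyperoxic mice were at 27.2 and 123 CPM and overlapped with them. It fell by 1.92 (SE 0.41, edgeR adjusted p = 0.0016) over all ages and was lower in 5 of 6 groups of age and pool. Hspa1b fell by 2.20, but the pair is nearly identical in sequence and reads can be lost or exchanged between them. Dnajb1 (a heat-shock cochaperone, 0.67) and Ier2 (0.44) fell as well. The number of immediate early genes that fell was between 2 and 11 when a pool was left out, and 12 among cells with a C1q UMI.

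Of 17 tested targets of NF-kB, 7 fell and 1 rose, where 6.03% of all tested genes fell and 6.69% rose. The decreases were led by Icam1 (an adhesion molecule, 0.55), Cd83 (0.49), Tnfaip3 (a brake of NF-kB signalling, 0.49) and Birc3 (0.47), and the increase was in Sod2, which is also an antioxidant gene. Their number was 3 without the second P14 pool. Of 12 tested p53 targets, 4 rose and 2 fell, beside the same shares over all tested genes, so this list went both ways. Bax, which drives apoptosis, rose by 0.73 (SE 0.09, edgeR adjusted p = 5.8e-07), Ccng1 by 0.63, Cdkn1a, which holds the cell cycle, by 0.49 and Plk3 by 0.39, while Pmaip1 fell by 0.86 and Btg2 by 0.39. Of 21 tested genes of the cell cycle, 0 passed the test in either direction, with a median of -0.05.

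**Figure D4:**
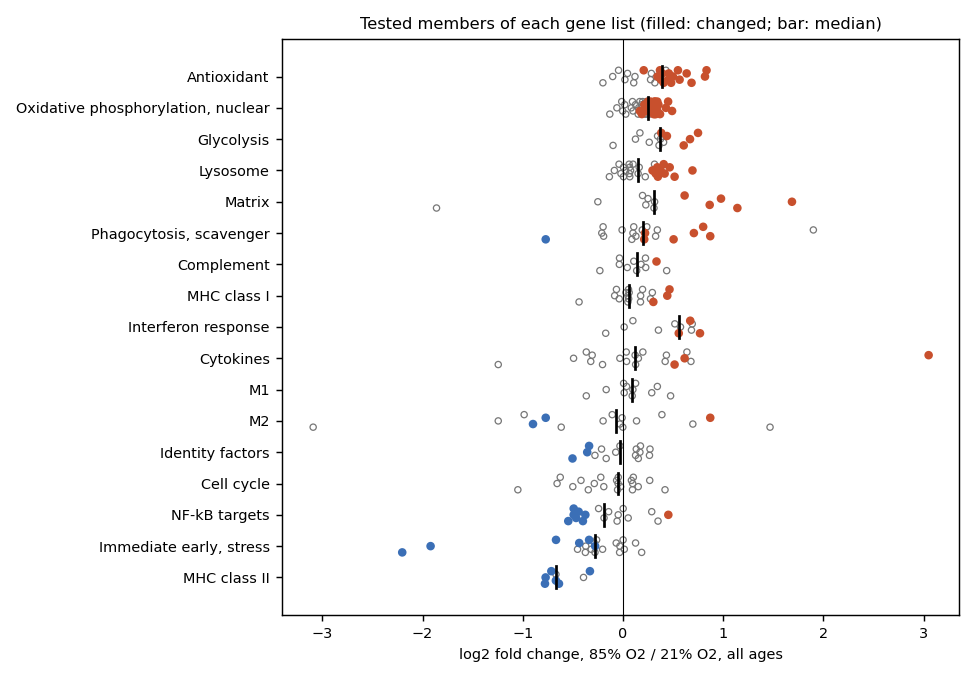
Log2 fold change in 85% against 21% O2 over all ages for the tested members of 17 gene lists. Filled points are genes counted as changed, red higher and blue lower, open points did not pass, and the bar is the median of the list. The antioxidant list holds 16 filled points above 0 and the MHC class II list 6 below 0.

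MHC class II genes were lower in hyperoxia, and their number depended on which cells and pools were summed. Of 8 tested genes 6 fell and 0 rose over all ages, with a median of -0.67, where 6.03% of all tested genes fell and 6.69% rose. H2-Aa was at 336 to 1307 CPM (median 615 CPM) in normoxia and 439 to 709.6 CPM (median 567 CPM) in hyperoxia at P3. It was at 1138 to 2691 CPM (median 2053 CPM) and at 163, 673, 735, 1183 and 1277 CPM at P7, and at 2985 to 5447 CPM (median 4247 CPM) and 1631 to 3411 CPM (median 2377 CPM) at P14. The oxygen levels overlapped at each age. In the P3 mice of the shared pool the value was above 0 for H2-Aa (0.54), H2-Ab1 (0.59), H2-Eb1 (1.07) and Cd74 (0.36), as log2 differences, and each of these 4 genes was lower in the other 5 of 6 groups of age and pool. H2-Aa fell by 0.77 (SE 0.19, edgeR adjusted p = 0.0045), Ciita by 0.78, H2-Ab1 by 0.72, H2-Eb1 by 0.67, Cd74, the chaperone of class II molecules, by 0.64 and H2-DMa by 0.33. Beside it, the summed level of 6 dendritic markers was 44.4 to 174 CPM in normoxia and 5.16 to 68.9 CPM in hyperoxia at P7, and 134 to 332 and 36.9 to 177 CPM at P14. Among these markers, Cd209a had the highest mean of any type in interstitial macrophages. Whether the cells that held a UMI of these markers were of another type was not tested. Without the cells that held such a UMI, 0 of the 8 class II genes fell, and among cells with a C1q UMI 5 did. The number was also 0 without age as a covariate and 0 without the second P14 pool, 2 without the first P14 pool and 2 without the second P3 pool, and 1 without the P7 mice of the shared pool. The share of cells with a UMI of H2-Aa, at 1000 UMIs per cell, was 25.7% in normoxia and 14.5% in hyperoxia at P7 and 47.7% and 41.2% at P14, and 0 ages passed the exact permutation test after adjustment.

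Of the 5 markers, Cx3cr1 fell by 0.42 (SE 0.13, edgeR adjusted p = 0.026) and C1qb rose by 0.33 (SE 0.09, edgeR adjusted p = 0.0089), while C1qa, C1qc and Apoe did not pass over all ages. The call of Cx3cr1 was lost without any 1 of 4 groups of age and pool, namely the second P14 pool, either group of P3 mice and the P7 mice of the shared pool. The call of C1qb was lost among cells with a C1q UMI, among cells without a dendritic UMI, with an equal number of cells and without age as a covariate, and Cx3cr1 was also lost with the last 2 of these. Of 15 tested identity factors 3 fell, Bhlhe40 by 0.50, Maf by 0.36 and Nr4a1 by 0.34, and 0 rose. Of 11 genes of the Lyve1-positive subset of interstitial macrophages, Cd163 and Maf fell, 0 rose and 9 did not pass. Of these 11 genes, 5 were above 0, and the median was -0.002. Lyve1 itself did not pass and was higher in all 6 groups of age and pool. Of 11 textbook M1 genes 0 passed the test in either direction, and 1 of 11 passed at P14, Fcgr1. Of 16 textbook M2 genes Msr1 rose and Cd163 and Mgl2 fell. The share over all tested genes was 6.69% up and 6.03% down, so these few calls were not shown to set the lists apart.

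Of 20 tested cytokine and growth factor genes 3 rose (Spp1, Tgfbi and Mif by 0.51) and 0 fell, of 15 chemokine genes Ccl7 (0.73) and Ccl6 (0.60) rose, and of 20 cytokine receptor genes Il6ra and Il10ra fell by 0.45 each. Of 9 chemokine receptor genes Cx3cr1 fell. Over all tested genes 6.69% rose and 6.03% fell, so these few calls were not shown to set the lists apart. The genes that the study names for these cells or for macrophage signals were chosen on these same mice, so their direction is not independent evidence. Of 18 tested, C1qb, Lgals3 and Anxa1 (0.48) rose and 0 fell. Csf1r had a log2 fold change of -0.18 (SE 0.09, edgeR adjusted p = 0.19), which did not pass, and was lower in all 6 groups of age and pool. The log2 fold change over all ages was 0.04 for Tnf, the tumour necrosis factor gene, and 0.00 for Ccr2, the receptor that draws monocytes from blood, and neither passed. For Ccr2 the value was below 0 at P3 and above 0 at P14, and neither age passed. It was at 244 to 510 CPM (median 368 CPM) in normoxia and 124 to 265 CPM (median 224 CPM) in hyperoxia at P3 (log2 fold change -0.75, edgeR adjusted p = 0.66), with differences of -0.76 and -0.87 within the P3 pools. Ccr2 was at 185 to 579 CPM in normoxia and 273 to 681 CPM in hyperoxia at P14 (log2 fold change 0.85, edgeR adjusted p = 0.073), where the groups overlapped through 1 normoxic mouse at 579 CPM and the highest of the others at 258 CPM. At 1000 UMIs per cell, Ccr2 had a UMI in 12.5% and 28.9% of the cells at P14 (exact permutation test, p = 0.0216, adjusted over 48 tests 0.163). Of the 48 pairs of 16 genes and 3 ages tested in this way, 0 passed.

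The number of changed genes was smallest at P3 and largest at P14. At P3, 6 of 5112 genes rose (0.117%) and 0 fell, among them Ftl1, Prdx1, Spp1, Wfdc17 and mt-Co2, and the count was 11 with a term for each pool and 0 without the P3 mice of the shared pool. At P7, 40 changed (0.782%), of which 26 rose (0.509%) and 14 fell (0.274%), and with a term for each pool 69 changed. Leaving out 1 hyperoxic P7 mouse at a time gave 8 to 66 changed genes, with 8 without replicate 3, 19 without replicate 2 and 66 without replicate 4. At P14, 696 changed (13.6%), of which 333 rose (6.51%) and 363 fell (7.1%). Levels did not overlap between the oxygen levels for 107 genes that were higher in hyperoxia at P14 (2.09% of all tested) and 114 that were lower (2.23%). Of the 342 genes that rose over all ages, 328 had a log2 fold change above 0 at P3, 341 at P7 and 340 at P14, in the same mice. With the cells of each mouse thinned to equal UMIs per cell, 378 genes changed at P14 and 371 over all ages.

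At P14 the largest increases were in Arg1 (arginase 1), Spp1, the chemokine gene Ccl8, Clec4d and Mmp19, and the largest decreases in Retnla, Chil3, Lilra5, Adam19 and Mt2 (a metallothionein). Arg1 had 0 of 1107643 UMIs in the 6 normoxic mice, which allows up to 2.71 CPM at 3 counts over the group, and 1 to 242 UMIs, or 2.46 to 439 CPM, in the hyperoxic mice. Over the summed groups it was at least 53.2-fold higher in hyperoxia, with an SD of 64.3 over the hyperoxic mice. This bound covers counting error and not the spread between mice. The edgeR test over mice gave an adjusted p = 0.011. Replicate 1 of the hyperoxic mice gave 242 of the 528 UMIs, and without it the bound was 33.9-fold. Without replicate 5, 307 UMIs remained and the bound was 42.8-fold. Replicates 1 and 5 stood at 439 and 217 CPM, with the next mouse at 55.1 CPM. The lowest hyperoxic mouse, at 2.46 CPM, lay below the limit of the normoxic group. Ccl8 was at 0 to 44.2 CPM in normoxia and 13.2 to 460.1 CPM in hyperoxia, an increase of 3.75 (SE 0.85). Ccl2, the main ligand of CCR2, rose by 1.25 (SE 0.36, edgeR adjusted p = 0.017) and Ccl7 by 1.91 (SE 0.40).

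Retnla, a secreted protein of alternatively activated macrophages, was at 137 to 2876 CPM (median 527 CPM) in normoxia and 0 to 86.1 CPM (median 25.7 CPM) in hyperoxia at P14, and fell by 4.99 (SE 0.73, edgeR adjusted p = 1.5e-05). Chil3, a chitinase-like protein that alveolar macrophages make in quantity, was at 18.4 to 3791 CPM and 33.8 to 330.1 CPM, and fell by 2.99 (SE 0.72). Within the P14 pools its log2 difference was -3.50 in the first and -0.28 in the second, where normoxic mice stood at 18.4, 68.8 and 3791 CPM and overlapped with the hyperoxic ones at 54.2 to 330.1 CPM. With equally many cells per mouse its decrease no longer passed. The 11 markers of alveolar macrophages summed to 434 to 5741 CPM in normoxia and 340 to 793 CPM in hyperoxia at P14, and 3 of 7 tested fell there (Chil3, Ear1 and Ear2) and 0 rose. Their part in these differences was not tested.

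Interferon-response genes were higher in hyperoxia at P14. Of 11 tested genes 7 rose at P14 and 0 fell, with a median of 1.31, while 0 passed at P3 or P7 by edgeR (medians 0.05 and 0.28). The share of all tested genes that rose was 0.117%, 0.509% and 6.51% at P3, P7 and P14, and 7.1% fell at P14. So 0 calls among 11 genes at P3 and P7 do not set the list apart there. Bst2, Ifitm3 and Zbp1 rose over all ages. Ifi27l2a was at 74.8 to 182 CPM (median 129 CPM) in normoxia and 390.3 to 633 CPM (median 482 CPM) in hyperoxia at P14, and rose by 1.97 (SE 0.27, edgeR adjusted p = 6.5e-06). At P3 and P7 its log2 fold change was -0.08 and 0.01. The difference of the effect between P14 and P3 was 2.05 (SE 0.36, edgeR adjusted p = 0.0027) and between P14 and P7 1.96 (SE 0.37, edgeR adjusted p = 0.021), so the response differed between ages for this gene. Bst2, whose promoter is shown above, rose by 1.05 at P14, from 96.9 to 191 CPM in normoxia to 231 to 417 CPM in hyperoxia, Ifitm3 by 1.06, Zbp1 by 1.55, Isg15 by 1.78, Rtp4 by 2.14 and Ifi204 by 1.31. With equal UMIs per cell 4 of them rose at P14, and among cells with a C1q UMI 4 did. The 7 markers of monocytes summed to 24.5 to 267 CPM (median 77.1 CPM) in normoxia and 78.7 to 370 CPM (median 231 CPM) in hyperoxia at P14. Of 3 tested monocyte markers 0 passed there, and their part in these increases was not tested. At P14, 7 of 18 tested genes of MHC class I presentation rose as well and 0 fell, led by Psme2 (1.09) and Psmb10 (0.88), subunits of the proteasome that makes antigen peptides.

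**Figure D5:**
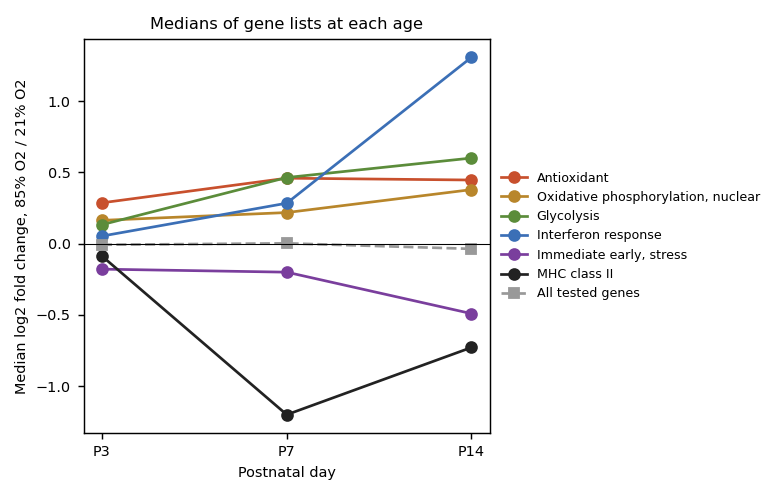
Median log2 fold change in 85% against 21% O2 over the tested members of 6 gene lists, and over all tested genes (dashed), at P3, P7 and P14. The interferon list goes from 0.05 at P3 to 1.31 at P14, the antioxidant list lies between 0.29 and 0.46 at each age, and MHC class II genes are lowest at P7 (-1.20).

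Hyperoxia had a different effect at P14 than at P3 on 26 of 5112 genes (0.509%), with 14 toward higher (0.274%) and 12 toward lower (0.235%) at P14, and for 78 with a term for each pool. Fn1, which encodes fibronectin, was at 571 to 1047 CPM in normoxia and 295 to 1112 CPM in hyperoxia at P3, and at 182 to 304 CPM and 578 to 1774 CPM at P14, so that the groups overlapped at P3 and were apart at P14 (difference of effects 2.25, SE 0.52, edgeR adjusted p = 0.032). Osm, a cytokine that acts on stroma and endothelium, differed by 1.70 and was at 52.1 to 137 CPM in normoxia and 136 to 352 CPM in hyperoxia at P14. Ifi204 and Pgp differed by 1.59 and 1.54. In the other direction, Cadm1 (an adhesion molecule) differed by -2.28, Adam19 by -2.24, Acss1 (a mitochondrial acetyl-CoA synthetase) by -1.98, Dst by -1.46 and Adgre5 by -1.43. Adam19 was at 52.8 to 124 CPM in normoxia and 4.39 to 32 CPM in hyperoxia at P14. Between P14 and P7, 7 genes differed (0.137%; 4 toward higher, 0.0782%, and 3 toward lower, 0.0587%), or 14 with a term for each pool, with Ifi27l2a, Osm, Anxa3 and Clec4n toward higher and mt-Nd1 toward lower among those named here. Between P7 and P3, 0 genes differed by edgeR, with 253 at an unadjusted p under 0.05 (4.95%).

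In normoxia MHC class II genes rose with age. In normoxia 347 genes differed between P7 and P3 (6.79%), or 192 with a term for each pool, 258 between P14 and P7 (5.05%) and 738 between P14 and P3 (14.4%). The older age was the higher for 3.29%, 2.62% and 7.79% of the tested genes in these comparisons and the lower for 3.5%, 2.43% and 6.65%. Of 8 tested MHC class II genes, 6 rose from P3 to P7, 4 from P7 to P14 and all 8 from P3 to P14, where their median log2 difference was 2.55, and 0 fell. H2-Aa rose by 1.54 (SE 0.31, edgeR adjusted p = 0.0011) from P3 to P7 and by 1.20 (SE 0.30, edgeR adjusted p = 0.012) from P7 to P14, and Cd74 by 1.69 and 0.74, of which the second did not pass. The share of cells with a UMI of H2-Aa at 1000 UMIs per cell was 10.1%, 25.7% and 47.7% at P3, P7 and P14. The summed level of the dendritic markers was 0 to 71.8, 44.4 to 174 and 134 to 332 CPM at these ages. In hyperoxia, 0 class II genes passed from P3 to P7 and 7 rose from P7 to P14 (median 1.49), among 172 (3.36%) and 104 (2.03%) genes that differed. Of the tested genes 1.35% were higher and 2.01% lower at P7 than at P3, and 1.17% higher and 0.861% lower at P14 than at P7.

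The C1q genes rose from P3 to P7 in normoxia, C1qa by 0.96 (SE 0.15), C1qb by 0.96 (SE 0.15) and C1qc by 0.86 (SE 0.14), and C1qa and C1qb fell from P7 to P14 by 0.71 and 0.53. C1qa was at 1394 to 2404 CPM at P3, 2979 to 4420 CPM at P7 and 1510.05 to 2696 CPM at P14, so the P7 mice were above the mice of both other ages. Csf1r rose by 0.80 from P3 to P7. Fn1 fell by 1.92 (SE 0.38, edgeR adjusted p = 0.001) from P3 to P7. Lyve1, a hyaluronan receptor gene that marks perivascular macrophages, was lower by 2.50 (SE 0.59, edgeR adjusted p = 0.0031) at P14 than at P3. Of the 11 tested genes of the Lyve1-positive subset it was the 1 that fell, Cd163 rose by 1.39 and 9 did not pass, with a median of 0.18. In normoxia, 11 of 28 antioxidant genes were lower and 2 higher at P14 than at P3, and 15 did not pass. Of 54 nuclear genes of oxidative phosphorylation, 16 were lower, 1 was higher and 37 did not pass, while 10 of 13 genes of the mitochondrial genome were higher and 0 lower.

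From P7 to P14 in normoxia, the largest increases were in Chil3 (3.63), Retnla (2.98), Atp6v0d2 (1.93), Mmp12 (1.88) and Cdc42ep3 (1.82), and 5 of 11 interferon-response genes fell with 0 up, Ifi27l2a by 1.26. The largest decreases were in the haemoglobin genes Hbb-bt (8.91), Hba-a1 (8.81), Hbb-bs (8.14) and Hba-a2 (7.74) and in Adamdec1 (3.07), a decysin-like protease. The summed haemoglobin level in normoxia ran from 32.6 to 20352 CPM at P7, with a median of 457 CPM, and from 0 to 33.4 CPM at P14, so the ages overlapped and the P7 mice lay far apart from each other. Haemoglobin RNA comes from red cells, and their part in these decreases was not tested. The 11 markers of alveolar macrophages summed to 388 to 1062 CPM (median 529 CPM) at P7 and 434 to 5741 CPM (median 2094 CPM) at P14 in normoxia. Of 7 tested, 4 rose (Chil3, Ear1, Atp6v0d2 and Ear2) and 0 fell, with a median of 1.34, and their part in the increases was not tested. P14 mice were in pools of their own, and pool and age cannot be told apart.

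Compared with alveolar macrophages of the same mice, the effect of hyperoxia over all ages differed for 1498 of 8459 genes (17.7%, with 8.35% higher and 9.36% lower) by edgeR, in 1 fit of both types with a term for each mouse, so a difference need not equal that of the values fitted in each type alone. In alveolar macrophages 3781 of 8314 genes changed (45.5%), 23.3% up and 22.2% down. Genes with the lowest difference, interstitial against alveolar, were Il7r (-4.78), Itgam (-3.64), Ccl2 (-3.61), the complement receptor gene C3ar1 (-3.33) and the elastase gene Mmp12 (-3.00). Itgam, an integrin chain of the complement receptor, had a log2 fold change of 0.44 in interstitial and 4.01 in alveolar macrophages, and Ccl2 of 0.44 and 5.2. Genes with the highest difference were Cyp4f18 (1.91), C5ar1 (1.79), Clec4a3 (1.79), and the cell-cycle genes Ccnb2 (1.66) and Top2a (1.62). Of 26 cell-cycle genes, 21 had a higher effect in interstitial than in alveolar macrophages and 0 a lower one. Top2a, which untangles replicated DNA, had a log2 fold change of -0.22 in interstitial macrophages, where it did not pass, and fell by 1.72 in alveolar macrophages. Of 28 antioxidant genes, 13 had a lower effect in interstitial than in alveolar macrophages, 3 a higher one and 12 did not pass. Prdx1 rose by 0.82 in interstitial and by 1.25 in alveolar macrophages (difference -0.48, SE 0.10, edgeR adjusted p = 0.00065), and Srxn1 by 0.68 and 1.66. For Fabp5 the effects were 1.66 and 1.61 (difference -0.02, SE 0.31), which did not pass.

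Compared with monocytes, the effect of hyperoxia differed for 96 of 5747 genes (1.67%, with 0.766% higher and 0.905% lower), and in monocytes 213 of 4574 genes changed (4.66%), 2.43% up and 2.23% down. The effect was higher in interstitial macrophages for Fabp5 (1.5), Clec4d (1.41), Cd36 (1.33), Lpl (1.17) and Mphosph10 (1.10), and for 5 of 17 genes of lipid handling, with 0 lower. Fabp5 had a log2 fold change of 0.03 in monocytes, and Cd36 of -0.84. It was lower for Wfdc21 (-3.07), H2-Eb1 (-2.52), H2-Aa (-2.28), Chil3 (-2.13) and H2-Ab1 (-2.02), and for 5 of 8 MHC class II genes, with 0 higher. H2-Aa fell by 0.77 in interstitial macrophages and had a log2 fold change of 1.45 in monocytes, where its mean level was 101 CPM and it was not called, having a UMI in too few cells. Prdx1 and Ftl1 had the higher effect in interstitial macrophages by 0.57 (SE 0.10, edgeR adjusted p = 0.00058) and 0.51 (SE 0.07, edgeR adjusted p = 9.9e-06), with log2 fold changes of 0.22 and 0.12 in monocytes that did not pass. Of 28 antioxidant genes, 4 had the higher effect and 0 the lower one against monocytes.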

How the data were processed

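Whole lungs of 36 mice were measured in 6 libraries, which are 5 pools of mice, since 1 pool was run as 2 libraries. Per the labels and the methods, the authors counted UMIs with Cell Ranger 3.0.2 on mm10, assigned cells to mice by their MULTI-seq barcodes, and kept cells with over 200 genes and up to 20% of UMIs from mitochondrial genes. The deposited count matrix holds whole UMI counts per gene and cell, and the deposited cell table gives the cell type, age and oxygen level of each cell and the percent of mitochondrial UMIs. Mice were told apart by the deposited cell table, and the deposited counts of the MULTI-seq barcodes enter no result. In the table, 2 interstitial macrophages lay above 20% and were kept. No doublet caller was run here. The authors had removed cells with more than 1 sample barcode, and rare clusters with markers of another type that they took for likely doublets. Doublets of cells from the same mouse carry 1 sample barcode, so some may remain.

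Counts were summed over the interstitial macrophages of each mouse with at least 10 of them and tested with edgeR 4.0.16 in R 4.3.3 (TMM, filterByExpr, quasi-likelihood test, Benjamini-Hochberg adjustment over all tested genes). Sums held 108414 to 1017804 UMIs. P-values of shares are from exact two-sided permutation tests over mice, and that of the difference in effect between ages from 100000 resamples. The mouse is the replicate, the sexes are not balanced in every group, and the limit that a count of 0 allows (3 counts) covers counting error only. Cells were thinned to 1000 UMIs before shares of cells with a UMI were compared. Genes were named first by a fixed rule: the genes the study names, the markers, the largest changes each way among genes whose mean log2 CPM reached 5, and up to 4 changed members of each list. Further members of some lists were named beside them, outside this rule. Members and lists were chosen with earlier results of these data known. Near-identical genes (Hspa1a and Hspa1b, Ear1 and Ear2, haemoglobins, MHC genes, the Clec4 and Ifi204 families) can exchange reads, and their values are uncertain.

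A pool is a shared batch, and the deviations of the normoxic and hyperoxic mice of a pool from their group means correlated with r = 0.293 at P3, 0.325 at P7 and 0.166 at P14, across 4797 genes, which are not independent replicates. Fits with a term for pool were therefore run beside the edgeR tests of hyperoxia over all ages and at each age, and of its difference between ages. They were also run for P7 against P3 in normoxia, but not for the other comparisons of ages or for those with alveolar macrophages and monocytes. Promoters are RefSeq windows on GRCm38.p6. The test was run on simulated counts with known changes. Over all ages, 77.8% of genes changed 1.5-fold and 100% of those changed 2-fold were recovered. These shares were 27% and 81% at P14, and 9.5% and 30.2% in the difference between P14 and P3. The simulated counts had a single mean per gene, with no effect of age or pool. The criterion on the share of cells with a UMI was not applied to them. Recovery in the real counts may therefore be lower. Alternatives were DESeq2 1.42.0, other filters and denominators, equal UMIs or cells, and leaving out mice and pools. The subsets of cells with a C1q UMI or without a dendritic UMI, the fits without the P3 mice of the shared pool, and the Arg1 bound without single mice, were chosen after seeing the data.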

Additional observations from a re-analysis of the deposited data

Results flagged for a closer look

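In 102 groups of mice, over 17 quantities, 14 held a mouse whose distance to the nearest other mouse, relative to the range of the group, passed Dixon's 95% value, where chance gives about 1 group in 20. The highest P7 mouse had 215 CPM of Spp1 in normoxia, with the next at 77.7 CPM, and 849 CPM in hyperoxia, with the next at 356 CPM. That hyperoxic mouse, replicate 3, also had 338 CPM of Slc7a11 against 117 CPM in the next. Fabp5 reached 2800 CPM in a P14 mouse in hyperoxia, with the next at 1275 CPM. Prdx1 reached 1061 CPM in a P3 mouse in normoxia, with the next at 905 CPM, and 2559 CPM in one in hyperoxia, with the next at 1487 CPM.

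Fn1 was at 571 CPM in the lowest P3 mouse in normoxia, with the next at 899 CPM. Retnla was at 229.6 CPM in a P7 mouse and 86.1 CPM in a P14 mouse in hyperoxia, with the next at 23 and 31.4 CPM. In normoxia, Ccr2 was at 579 CPM in a P14 mouse with the next at 258 CPM, and Tnf at 202 CPM in another with the next at 148 CPM. Csf1r was at 502 CPM in the lowest normoxic P7 mouse with the next at 816 CPM, and C1qa at 4420 CPM in the highest with the next at 3462 CPM. The share of interstitial macrophages was 5.39% of all cells in a normoxic P3 mouse, with the next at 3.54%.

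By edgeR, hyperoxia had a different effect at P14 than at P3, as a log2 difference, on Fn1 (2.25), Ifi27l2a (2.05), Osm (1.70), Ifi204 (1.59) and Pgp (1.54) and, toward lower at P14, on Cadm1 (-2.28), Adam19 (-2.24), Acss1 (-1.98), Dst (-1.46) and Adgre5 (-1.43). Between P14 and P7 it differed for Ifi27l2a (1.96), Osm (1.66), Anxa3 (1.13), Clec4n (1.04) and mt-Nd1 (-0.55).

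Against alveolar macrophages the effect was higher for Cyp4f18 (1.91), C5ar1 (1.79), Clec4a3 (1.79), Ccnb2 (1.66) and Top2a (1.62) and lower for Il7r (-4.78), Itgam (-3.64), Ccl2 (-3.61), C3ar1 (-3.33) and Mmp12 (-3.00). Against monocytes it was higher for Fabp5 (1.5), Clec4d (1.41), Cd36 (1.33), Lpl (1.17) and Mphosph10 (1.10) and lower for Wfdc21 (-3.07), H2-Eb1 (-2.52), H2-Aa (-2.28), Chil3 (-2.13) and H2-Ab1 (-2.02).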

How the results depend on the processing

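Over all ages 650 genes changed, against 371 with equal UMIs per cell, 196 with equal numbers of cells, 388 without age as a covariate, 278 and 296 without the first and second P14 pool, 390 without the P7 mice of the shared pool, and 522 to 748 when 1 hyperoxic P7 mouse was left out. At P3, 6 genes changed, against 11 by DESeq2, 1 with equal numbers of cells, 2 with mice of at least 25 cells, 32 without the filter on low counts, 12 in cells with a C1q UMI and 0 without the P3 mice of the shared pool. The count at P3 was 3 without the summed mouse with the fewest interstitial macrophages, which was replicate 5 of the normoxic P14 mice with 20 cells. At P7, 40 changed, against 21 with equal UMIs, 4 with equal numbers of cells, 25 with mice of at least 25 cells, 118 without the filter, 11 in cells with a C1q UMI and 8 to 66 when a hyperoxic mouse was left out. At P14, 696 changed, against 378 with equal UMIs and 149 with equal numbers of cells.

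With a term for each pool (the replicate block) the counts were 11 at P3, 69 at P7, 78 for the difference between P14 and P3 (26 without it), 14 for P14 and P7 (7 without it) and 192 for P7 against P3 in normoxia (347 without it). It moved no other count for which it was run by over 1.5 times. The difference between P14 and P3 gave 44 genes by DESeq2, 16 with equal UMIs, 16 with mice of at least 25 cells and 136 without the filter. That between P14 and P7 gave 15, 2 with equal UMIs and 74 without the filter, and that between P7 and P3 gave 0 and 16 without the filter. In normoxia equal UMIs gave 229, 113 and 447 genes for P7 against P3, P14 against P7 and P14 against P3, and in hyperoxia P14 against P7 gave 193 without the filter (104 with it). Without thinning, 5 pairs of gene and age passed for shares of cells with a UMI.

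The share at P14 against P3 in normoxia was -4.81 points among myeloid cells, no longer past the threshold, and in hyperoxia it turned to -2.24 points among immune cells. Among single genes over all ages, none of them past the threshold, the direction turned for Apoe (-0.0605) and C1qa (-0.0572) in cells with a C1q UMI, and for C1qc with equal cells (-0.13), in cells with a C1q UMI (-0.19) and without a dendritic UMI (-0.13). Ccr2 turned with equal cells (-0.10), without the P14 pools (-0.16 and -0.17), without the first P7 pool (-0.00918), without the summed mouse with the fewest interstitial macrophages (-0.0315) and without replicate 2, 3 or 6 of the hyperoxic P7 mice (range over all replicates left out, -0.0731 to 0.0935). Tnf turned with equal cells (-0.33, and -0.36 at P14), in cells with a C1q UMI (-0.0398), without a dendritic UMI (-0.0190), without the second P14 pool (-0.13) and without the first P7 pool (-0.0029). The cause was not tested. Of 2288 values of 147 named genes, 2023 kept direction and side of the threshold, 239 lost it, 7 passed it and 19 turned.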
